A study of Mus musculus with 12 samples.

Results

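A set of 10 genes that make, break down or sense prostaglandins was followed in primary mouse chondrocytes treated with dexamethasone: Ptgs1, Ptgs2, Ptgis, Ptges, Ptges2, Ptgds, Pla2g4a, Pla2g5, Hpgd and Ptger4. They were chosen by name, with earlier results of these data known. Each was read from the probe sets that the platform annotation gives to it alone. Of the 10 genes, 9 had such a probe set, 15 probe sets in all, out of 18194 named genes and 45101 probe sets on the array. Ptgs1 had none in the annotation used here, so the constitutive cyclooxygenase was not analysed. Ptgds, the lipocalin-type prostaglandin D synthase, had 2 probe sets whose mean stayed below an intensity of 50 in each of the 4 groups, and it was not tested. The remaining 8 genes were tested, with 9 probe sets among the 20897 that reached a mean of 50 in at least 1 group. That minimum let 1 gene in through its DEX arrays alone, Pla2g5, whose vehicle groups both averaged below 50.

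The cells were chondrocytes freed from the tibiae, femurs and humeri of E15.5 CD1 mouse embryos and grown as monolayers. They received 100 nM dexamethasone (DEX), a synthetic glucocorticoid, or its solvent DMSO (vehicle), in medium that also held ascorbic acid and beta-glycerophosphate in both arms. RNA was taken after 6 and 24 hrs and hybridised to Affymetrix whole-genome mouse expression arrays, 3 arrays for each of DEX at 6 hrs, vehicle at 6 hrs, DEX at 24 hrs and vehicle at 24 hrs, with the replicate numbers 1, 2 and 4. The study states 3 independent cell isolations, but nothing beyond the replicate numbers ties an array to an isolation, and the p-values below measure the spread between these arrays.

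Prostaglandins are lipid signals made from arachidonic acid. Phospholipases A2 cut the fatty acid out of membranes, the cyclooxygenases Ptgs1 and Ptgs2 turn it into the unstable prostaglandin H2, and terminal synthases convert that into prostacyclin, prostaglandin E2 or prostaglandin D2. Cells read these products through G protein-coupled receptors such as the prostaglandin E2 receptor EP4, encoded by Ptger4, and 15-hydroxyprostaglandin dehydrogenase, encoded by Hpgd, inactivates them. In cartilage the pathway is known for its induction by inflammatory cytokines, and glucocorticoids are textbook inhibitors of Ptgs2 expression.

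All 10 genes of a chondrocyte marker list, Col2a1, Acan and Sox9 among them, were above 50, as were 6 of 11 macrophage markers with a probe set. The summed macrophage signal was 759 to 926 with DEX and 723 to 1038 with vehicle at 6 hrs, and 666 to 786 with DEX and 769 to 1012 with vehicle at 24 hrs, and no macrophage gene passed the test. Of the macrophage markers Lyz2, Adgre1, Cd14, Csf1r, Cd68 and Mpeg1 were above 50 in at least 1 group, and Ptprc, Aif1, Fcgr3, Tyrobp and Itgam were not. None of 7 mast cell markers and 1 of 7 endothelial markers reached 50, against 6 of 7 for skeletal muscle and 8 of 8 for tendon and perichondrial fibroblasts, of which Postn was higher with DEX once day or pair was a block. What part these cells have in the levels of the prostaglandin genes was not tested, and in bulk RNA fewer cells of a type and less RNA per cell cannot be told apart. The arrays were hybridised on 4 days, each with DEX and vehicle arrays of 1 time point, and an effect of time cannot be separated from one of the day. Day 3, with the 4 arrays of replicates 1 and 2 at 6 hrs, stood apart in the Gapdh control, where the 3′ minus 5′ probe set signal had a mean log2 value of 0.63 (lowest 0.49, highest 0.74), against -0.29 on the other days (lowest -0.33, highest -0.22). Within the 6 DEX and vehicle pairs that control differed by -0.22 to 0.17.

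The genes of the pathway did not all go one way with DEX. Over both times, prostacyclin synthase (Ptgis) and the secreted phospholipase Pla2g5 rose and the inducible cyclooxygenase Ptgs2 fell, so that 3 of the 8 genes tested passed an adjusted p of 0.05 (limma, Benjamini-Hochberg over all 20897 probe sets), beside 0.747% of all probe sets tested (0.579% rose and 0.167% fell). At 6 hrs 1 gene passed, Ptgis, beside 0.225% of all probe sets, and at 24 hrs 2 genes passed, Ptgis and Pla2g5, beside 0.287%. Same-numbered DEX and vehicle arrays deviated together, and with these pairs as blocks the count was 2 genes at 6 hrs (Ptgis and Ptger4, beside 0.904% of all probe sets), 4 at 24 hrs (Ptgs2, Ptgis, Pla2g5 and Ptger4, beside 2.15%) and 6 over both times, beside 3.2%. The 3 genes that the pairs added over both times were Pla2g4a and Ptger4, which were lower with DEX, and Hpgd, which was higher. Hybridization day as a block gave 3, 5 and 5 genes, beside 0.948%, 2.18% and 2.87%. Pla2g5 was tested only through its DEX groups, and all members were chosen with earlier results of these data known. The shares of all probe sets are therefore a description and test nothing about the set. Ptges and Ptges2, the prostaglandin E synthases tested, passed in none of the fits above.

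**Figure D1:**
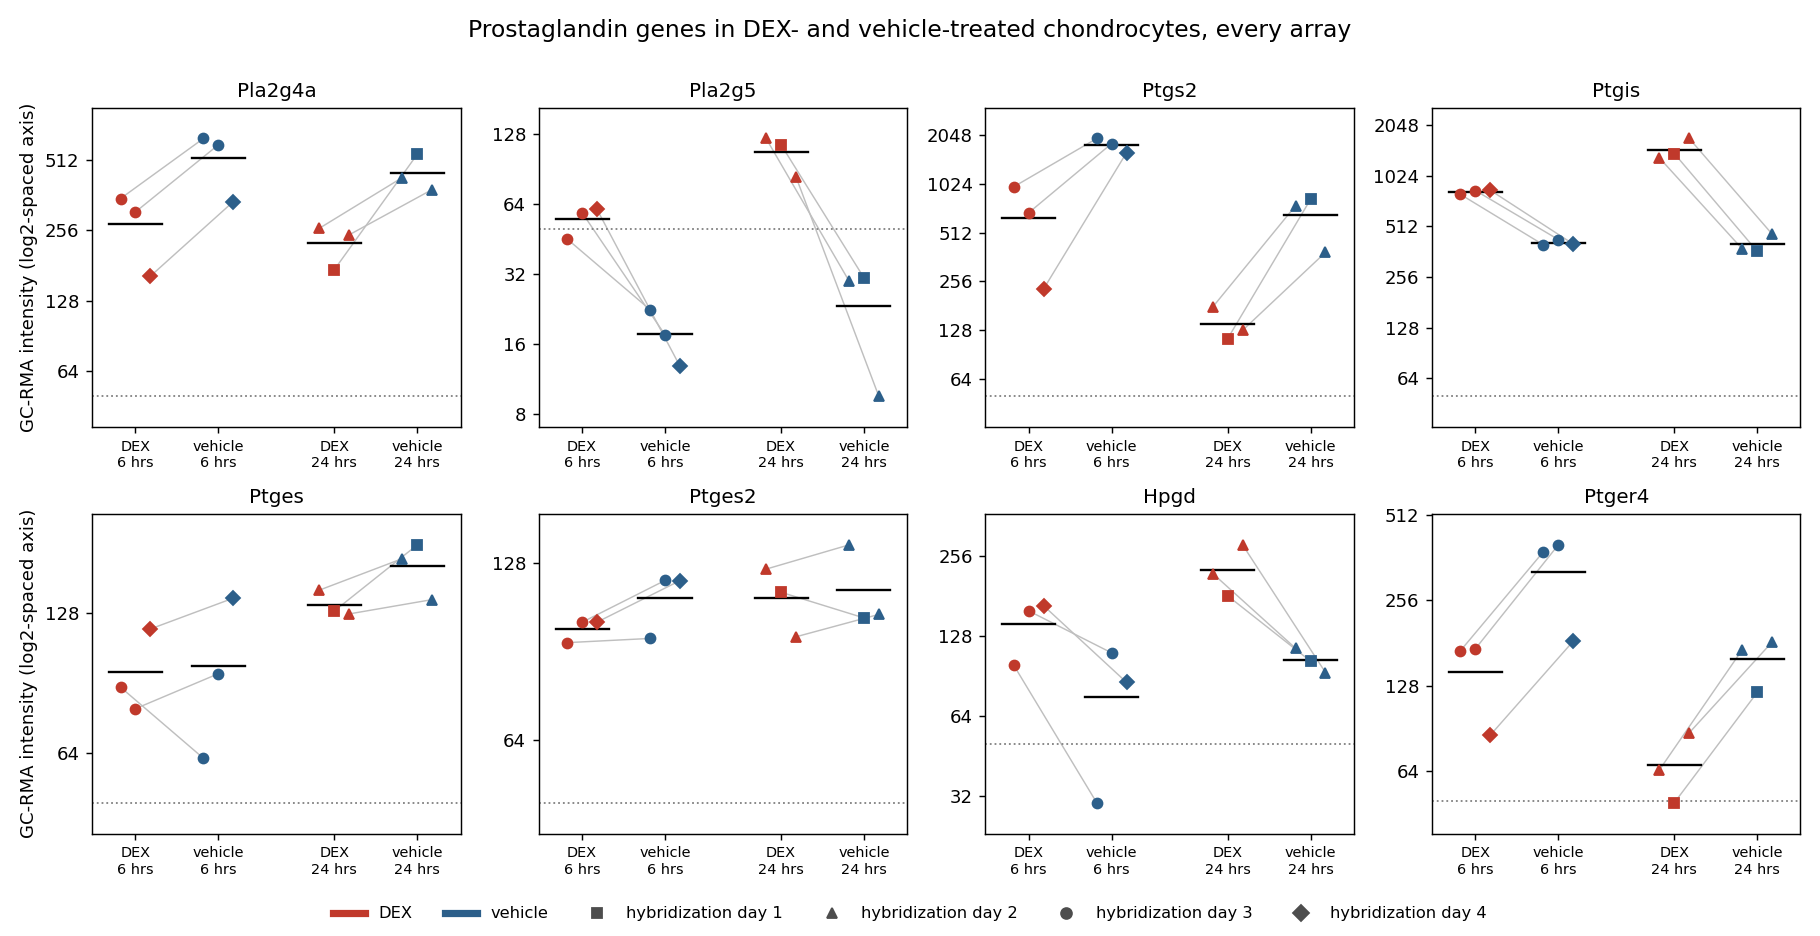
GC-RMA intensity (log2-spaced axis) of the 8 tested prostaglandin genes on each of the 12 arrays, DEX left of vehicle at 6 and at 24 hrs. Marker shapes give the hybridization day, black lines the group means, grey lines join arrays of 1 replicate number, and the dotted line marks 50. The 6 DEX arrays of Ptgis lie at 793 to 1704, all above its 6 vehicle arrays at 364 to 460.3.

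The DEX arrays lay wholly above the vehicle arrays of the same time for 2 of the 8 genes at 6 hrs (Ptgis and Pla2g5), as for 3.04% of all probe sets tested, and for 3 at 24 hrs (Hpgd too), as for 8.45%. They lay wholly below for 2 genes at 6 hrs (Ptgs2 and Ptger4), as for 2.96%, and for 3 at 24 hrs (Pla2g4a too), as for 10.9%. In 6 of 6 pairs 3 genes were higher with DEX (Ptgis, Pla2g5 and Hpgd), as were 4.29% of all probe sets, and 3 were lower (Ptgs2, Pla2g4a and Ptger4), as were 4.71%. Pla2g5 could enter these counts only because its DEX arrays were high.

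Sequences upstream of the genes that passed the test in any of the 3 fits are given here to set them beside each other, since 5 of these 6 have a window in the RefSeq table used (build GRCm38.p6) and none is tabled for Ptgis. Each window holds the 250 bases before a gene start, 5′ to 3′ on the gene's strand. Capitals mark a match to a motif searched or, in Pla2g5, a repeated run. Pla2g4a and Pla2g5 have 2 starts each, of which the upstream one is shown.
Ptgs2 (chr1:150099781-150100030, plus strand): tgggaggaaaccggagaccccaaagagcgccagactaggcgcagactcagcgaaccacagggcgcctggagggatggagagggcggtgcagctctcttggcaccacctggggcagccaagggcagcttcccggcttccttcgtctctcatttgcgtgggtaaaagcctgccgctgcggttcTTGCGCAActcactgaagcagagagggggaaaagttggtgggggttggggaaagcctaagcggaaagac
Ptger4 (chr15:5244188-5244437, minus strand): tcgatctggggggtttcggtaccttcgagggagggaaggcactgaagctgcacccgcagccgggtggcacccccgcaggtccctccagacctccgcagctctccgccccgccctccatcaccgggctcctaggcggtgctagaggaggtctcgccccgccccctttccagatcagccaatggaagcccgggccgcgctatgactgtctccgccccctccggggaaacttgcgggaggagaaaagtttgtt
Pla2g4a (chr1:149961291-149961540, minus strand): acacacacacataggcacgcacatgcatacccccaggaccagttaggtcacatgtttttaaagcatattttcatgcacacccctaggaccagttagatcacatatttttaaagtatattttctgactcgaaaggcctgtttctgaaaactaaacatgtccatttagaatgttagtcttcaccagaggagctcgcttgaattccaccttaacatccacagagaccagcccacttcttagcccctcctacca
Pla2g5 (chr4:138863470-138863719, minus strand): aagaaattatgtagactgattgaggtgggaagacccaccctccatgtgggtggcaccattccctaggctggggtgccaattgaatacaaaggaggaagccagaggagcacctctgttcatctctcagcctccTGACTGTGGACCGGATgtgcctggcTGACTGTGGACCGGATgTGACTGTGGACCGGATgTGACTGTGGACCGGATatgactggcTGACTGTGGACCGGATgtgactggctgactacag
Hpgd (chr8:56294302-56294551, plus strand): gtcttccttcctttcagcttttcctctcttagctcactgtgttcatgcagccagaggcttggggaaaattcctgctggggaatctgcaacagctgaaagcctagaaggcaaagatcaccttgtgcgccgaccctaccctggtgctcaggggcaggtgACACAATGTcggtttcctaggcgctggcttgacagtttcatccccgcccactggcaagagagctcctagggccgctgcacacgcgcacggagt

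The windows of the genes that were lower with DEX had little in common in base composition. Ptger4 had 66.8% G and C with 19 CpG, Ptgs2 61.6% with 13 and Pla2g4a 43.2% with 3, where the median of all 32851 windows was 52.4% with 6. Motifs of the glucocorticoid receptor were searched on both strands as the core ACANNNTGT (5.84% of all windows), the half-site AGAACA (16.1%, which can overlap the core) and the inverted repeat of negative response elements, CTCC and GGAGA with 0 to 2 bases between them (1.38%). None of these was found in the Ptgs2, Ptger4, Pla2g5 or upstream Pla2g4a window. The Hpgd window held the core as ACACAATGT, at -93 to -85 from the gene start, and the second Pla2g4a start, not printed, had the half-site at -221 to -216. The other motifs were NF-kB (3.90%), AP-1 as TGANTCA (6.75%), the CRE half-site TGACG (17.8%, which can overlap AP-1), the E-box CACGTG (6.02%) and the TATA box TATAAA (12.4%), and none was found in the 5 windows shown. Ptgs2 held TTGCGCAA at -69 to -62, its own reverse complement and a letter string that C/EBP factors are known to bind, present in 0.164% of all windows, and this motif was added after the windows had been read. The Pla2g5 window repeated the 16-base run TGACTGTGGACCGGAT 5 times between -118 and -19. Repeated runs were marked in Pla2g5 alone, and their share among all windows was not computed. The Pla2g4a window shown holds an unmarked repeated run too, aggaccagttag. The matches and the repeat describe letters in a window and were not tested for binding. Bases after the gene start were not searched, so a motif not found is absent from these windows alone. The paper searched a longer upstream region with a longer consensus sequence of the receptor. It lists a putative element for Ptgis, and reports that Ptgs2 appeared to lack one there.

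Release of arachidonic acid is the first step, and its 2 member genes lay on opposite sides of their vehicle levels. Pla2g4a encodes the cytosolic phospholipase A2 that prefers arachidonic acid. Its intensity was 350.4, 307 and 163 with DEX against 633, 595 and 340.0 with vehicle at 6 hrs (replicates 1, 2 and 4), and 262, 174 and 245 with DEX against 431, 542 and 383 with vehicle at 24 hrs. At 6 hrs the replicate 4 vehicle array lay below the replicate 1 DEX array, so the groups overlapped, while each DEX array was below its own vehicle array. At 24 hrs the groups did not overlap. On the log2 scale DEX minus vehicle came to -0.96 for 6 hrs and -1.0 for 24 hrs (SE 0.33 each, adjusted p 0.908 and 0.518), and to -0.98 when both times were combined (SE 0.23, adjusted p 0.123). Pairs as blocks brought the combined adjusted p to 0.0117, and days as blocks to 0.00313. For 6 and 24 hrs alone the pairs gave 0.0979 and 0.0509, and the days 0.0497 and 0.0257. At 24 hrs the pair of replicate 2 gave -1.64, against -0.72 and -0.64 for replicates 1 and 4.

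Pla2g5 encodes a secreted phospholipase A2 of low molecular weight. At 6 hrs it read 45.4, 58.9 and 60.8 with DEX against 22.6, 17.6 and 12.9 with vehicle. At 24 hrs it read 123, 115 and 83.9 with DEX against 29.96, 30.9 and 9.57 with vehicle. All vehicle arrays were thus under 50, near the background of the array, and the DEX arrays exceeded 50 on 5 of 6. DEX raised it by 2.35 on the log2 scale after 24 hrs (SE 0.41, adjusted p 0.0462) and by 2.01 when both times were combined (SE 0.29, adjusted p 0.00794), while the 1.66 of 6 hrs did not pass (SE 0.41, adjusted p 0.324). The call at 24 hrs was lost in 9 of the 12 fits that left out 1 array, at adjusted p of 0.0670 to 0.190, and kept without vehicle 24 hrs replicate 4, DEX 6 hrs replicate 4 or vehicle 6 hrs replicate 4, at 0.0402 to 0.0484. Without the minimum intensity its adjusted p was 0.154, and with a trended robust prior 0.0625. Without vehicle 24 hrs replicate 4, the lowest array, the effect of 6 hrs passed as well (adjusted p 0.0341). Over both times the call was kept in all 12. It was lost when the 4 arrays of day 3 were left out together, a choice made after seeing the data. That fit had 1 DEX and 1 vehicle array left at 6 hrs. Adding 16 to each intensity before log2 gave 1.68 at 24 hrs and 1.38 over both times, so the size of the fold depends on this setting.

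Ptgs2 encodes the inducible cyclooxygenase. The brighter of its 2 probe sets read 982, 678 and 230.3 with DEX against 1947, 1812 and 1593 with vehicle at 6 hrs. At 24 hrs it read 178, 114 and 128 with DEX against 751, 821 and 387 with vehicle. No DEX array reached a vehicle array of its time. The lowest vehicle array of 24 hrs stood below 2 of the DEX arrays of 6 hrs, and on this probe set the level was lower at 24 hrs in both arms, with a log2 difference of -1.96 with DEX and -1.52 with vehicle. The DEX effect spread widely among the pairs, with -0.99, -1.42 and -2.79 in the 6 hrs pairs of replicates 1, 2 and 4, and -2.08, -2.85 and -1.60 in the 24 hrs pairs. The pair of -2.79 was the one of day 4, and both others of 6 hrs were on day 3.

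Over both times Ptgs2 fell to 0.258 of its vehicle level, a log2 value of -1.95 (SE 0.33, adjusted p 0.0211). In the fit of all 12 arrays without a block neither time passed, at -1.73 after 6 hrs and -2.18 after 24 hrs (SE 0.47 each, adjusted p 0.482 and 0.130). The 24 hrs effect passed with pairs as blocks (0.0303), with days as blocks (0.0201), with the 24 hrs arrays alone in the fit (0.0266) and without DEX 6 hrs replicate 4 (0.0113). The 6 hrs effect passed with neither block (0.0978 and 0.0878), and without DEX 6 hrs replicate 4 it was -1.12 (adjusted p 0.570). The call over both times was kept in 6 of the 12 fits that left out 1 array. It was lost without DEX 24 hrs replicates 2 and 4 (adjusted p 0.0744 and 0.0750), vehicle 24 hrs replicates 1 and 2 (0.0776 and 0.0658) or vehicle 6 hrs replicates 1 and 2 (0.0660 and 0.0640), with log2 values of -1.95 to -1.85, and without the minimum intensity (0.0859). Without the 4 arrays of day 3 the log2 value was -2.48, with 1 DEX and 1 vehicle array left at 6 hrs, the pair of -2.79.

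The dimmer Ptgs2 probe set was lower with DEX in all 6 pairs too. It read 88.3, 93.4 and 161 with DEX against 244, 173 and 490.1 with vehicle at 6 hrs, and 108, 67.2 and 86.0 with DEX against 321, 337 and 163 with vehicle at 24 hrs. The groups did not overlap at either time, and the log2 fold change over both times was -1.46 (SE 0.29, adjusted p 0.0533, or 0.00739 with pairs as blocks). It passed in 3 of the 12 fits that left out 1 array, those without vehicle 6 hrs replicate 2, vehicle 24 hrs replicate 4 or DEX 6 hrs replicate 4 (adjusted p 0.0403, 0.0387 and 0.0401). The probe sets ordered the days differently. On the brighter one the replicate 4 arrays of 6 hrs, hybridised on day 4, were the lowest of their groups, and on the dimmer one they were the highest. The 24 minus 6 hrs difference of the dimmer one was -0.36 with DEX and -0.08 with vehicle, far from the -1.96 and -1.52 of the brighter one. Their correlation over the 12 arrays was 0.643, and 0.970 after the mean of each day was taken off, with DEX and vehicle arrays in the same 4 days behind both values. The Gapdh 3′ minus 5′ signal also set day 3 apart, and its part in this difference was not tested.

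**Figure D2:**
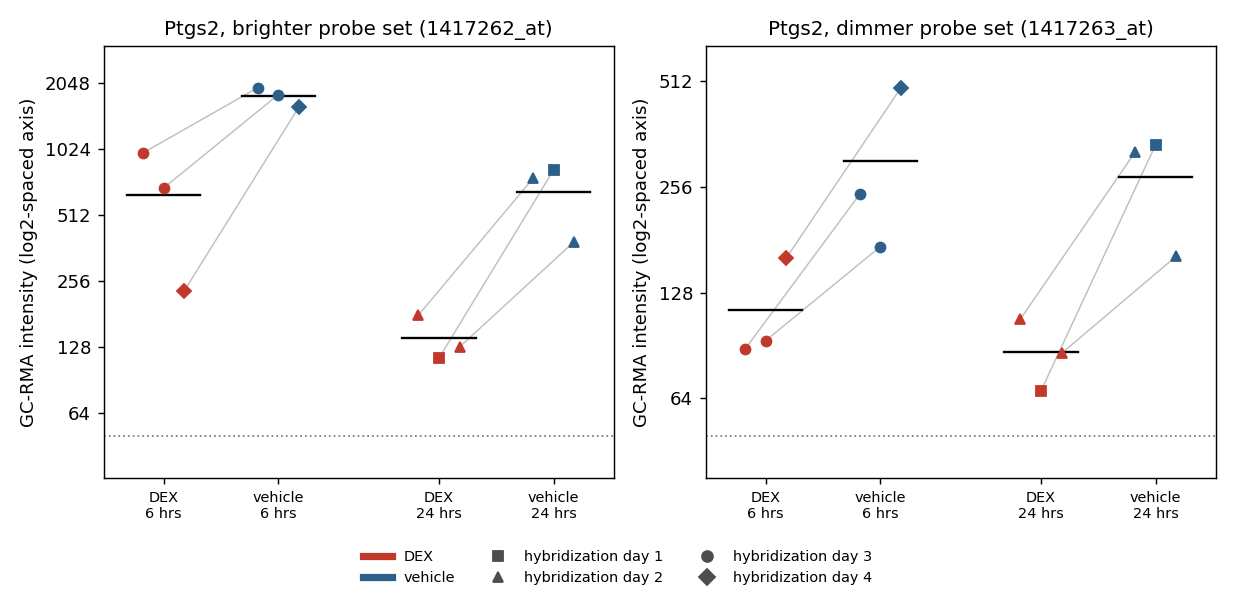
Intensity (log2-spaced axis) of both Ptgs2 probe sets on each array, DEX left of vehicle, with marker shapes for the hybridization day, black lines for group means, grey lines joining arrays of 1 replicate number and a dotted line at 50. The replicate 4 arrays of 6 hrs (day 4) are lowest in their groups on the left, at 230.3 with DEX and 1593 with vehicle, and highest on the right, at 161 with DEX and 490.1 with vehicle.

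Among the terminal synthases, Ptgis was the one to pass the test. It encodes prostacyclin synthase, which makes a product known for relaxing vessels and restraining platelets. Its intensity was 793, 836 and 839 with DEX against 398, 428 and 402 with vehicle at 6 hrs. At 24 hrs it was 1307, 1386 and 1704 with DEX against 376, 364 and 460.3 with vehicle. The vehicle groups of the 2 times differed by a log2 value of -0.04, and every DEX array of 24 hrs was above every DEX array of 6 hrs. DEX raised Ptgis 2.01-fold by 6 hrs (log2 1.01, SE 0.16, adjusted p 0.0332) and 3.66-fold by 24 hrs (log2 1.87, SE 0.16, adjusted p 0.000696).

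Pair by pair, Ptgis differed by 0.97 to 1.06 at 6 hrs and by 1.80 to 1.93 at 24 hrs, so the pairs of the 2 times did not overlap, as was true in this direction of 9.76% of all probe sets tested. The difference between the effects at 24 and 6 hrs was 0.86 (SE 0.22), with an unadjusted p of 0.00251 and an adjusted p of 1.00 in the limma fit, which was 0.298 when days were blocks and 0.228 when pairs were, so it did not pass. In this comparison limma called 0% of all probe sets tested without a block and 0% with day blocks, with 758 at an unadjusted p under 0.05 in the fit without a block, and 0.00479%, a single probe set, with pair blocks. The Ptgis call at 6 hrs was lost in 11 of the 12 fits that left out 1 array, at adjusted p of 0.0523 to 0.163 and log2 values of 0.99 to 1.04, and was kept at 0.0434 without vehicle 24 hrs replicate 4. It was also lost without the minimum intensity (0.197) and with only the arrays of 6 hrs in the fit (0.459). Its calls at 24 hrs and over both times (1.44, SE 0.11, adjusted p 0.000122) were kept in all 12.

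The 2 prostaglandin E synthases tested gave no difference beyond the spread between arrays. A further one, Ptges3, had no probe set annotated to it alone and was not read. Ptges, the microsomal synthase usually coupled to Ptgs2, read 88.7, 79.7 and 118 with DEX against 62.3, 94.8 and 138 with vehicle at 6 hrs, and 144, 129 and 128 with DEX against 168, 179.6 and 137 with vehicle at 24 hrs. It was lower with DEX in 5 of 6 pairs, the groups overlapped at both times, and the log2 fold change over both times was -0.13 with a 95% interval of -0.55 to 0.29 (adjusted p 1.00). Ptges2, a second membrane-associated synthase, read 93.6, 101 and 101 with DEX against 95.2, 119.5 and 119 with vehicle at 6 hrs, and 125, 114 and 95.8 with DEX against 137, 103 and 105 with vehicle at 24 hrs. Its log2 fold change over both times was -0.10 with an interval of -0.38 to 0.17 (adjusted p 1.00). These intervals leave out a halving as well as a doubling for both genes, each on its tested probe set, and 2 further Ptges probe sets stayed below a group mean of 50. Ptgds ranged from 20.5 to 75.2 over the DEX arrays and from 22.1 to 53.5 over the vehicle arrays on its brighter probe set, with 4 of 6 pairs higher with DEX.

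Hpgd encodes the dehydrogenase that begins prostaglandin inactivation. It read 99.1, 159 and 166 with DEX against 30.1, 110.4 and 85.5 with vehicle at 6 hrs, where 1 vehicle array was above 1 DEX array. At 24 hrs it read 219.7, 181 and 282 with DEX against 115, 103 and 93.1 with vehicle, and the groups did not overlap. DEX minus vehicle was 1.07 on the log2 scale for 6 hrs and 1.12 for 24 hrs (SE 0.42 each, adjusted p 1.00 and 0.635), and 1.09 for both times combined (SE 0.29, adjusted p 0.221). The combined value passed with pairs as blocks (0.0175) and not with days as blocks (0.0865). When only the 24 hrs arrays entered the fit, the adjusted p of 24 hrs was 0.0498. The pairs ran from 0.52 to 1.72 at 6 hrs, and the highest of them, replicate 1, rested on the vehicle array of 30.1. Its second probe set stayed below 50.

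Ptger4 encodes EP4, a prostaglandin E2 receptor that raises cyclic AMP. Its intensity was 169.9, 173 and 85.6 with DEX against 379.5, 401 and 184 with vehicle at 6 hrs, and 64.6, 49.4 and 87.2 with DEX against 171, 121 and 182 with vehicle at 24 hrs. The groups did not overlap at either time, although the replicate 4 arrays of 6 hrs were both far below the other arrays of their groups. Within pairs the effect was narrow, with -1.16, -1.22 and -1.10 in the 6 hrs pairs (replicates 1, 2 and 4) and -1.41, -1.29 and -1.06 in those of 24 hrs. For both times combined the log2 value was -1.21, with an SE of 0.26 and an adjusted p of 0.0811 when no block was used. Pairs as blocks lowered the SE to 0.08 and the adjusted p to 0.000470, and days as blocks lowered them to 0.09 and 0.000111. Of the 12 fits that left out 1 array, with no block, 1 passed. It was the fit without vehicle 6 hrs replicate 4, at -1.39 (adjusted p 0.0216), and the others had adjusted p of up to 0.229. The 6 hrs effect had an adjusted p of 0.756, or 0.00694 with the pairs, and the 24 hrs effect 0.401, or 0.00368 with the pairs. The second Ptger4 probe set, below 50 in every group, read 7.82 to 20.4 with DEX and 25.2 to 41.5 with vehicle, lower with DEX in all 6 pairs.

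**Figure D3:**
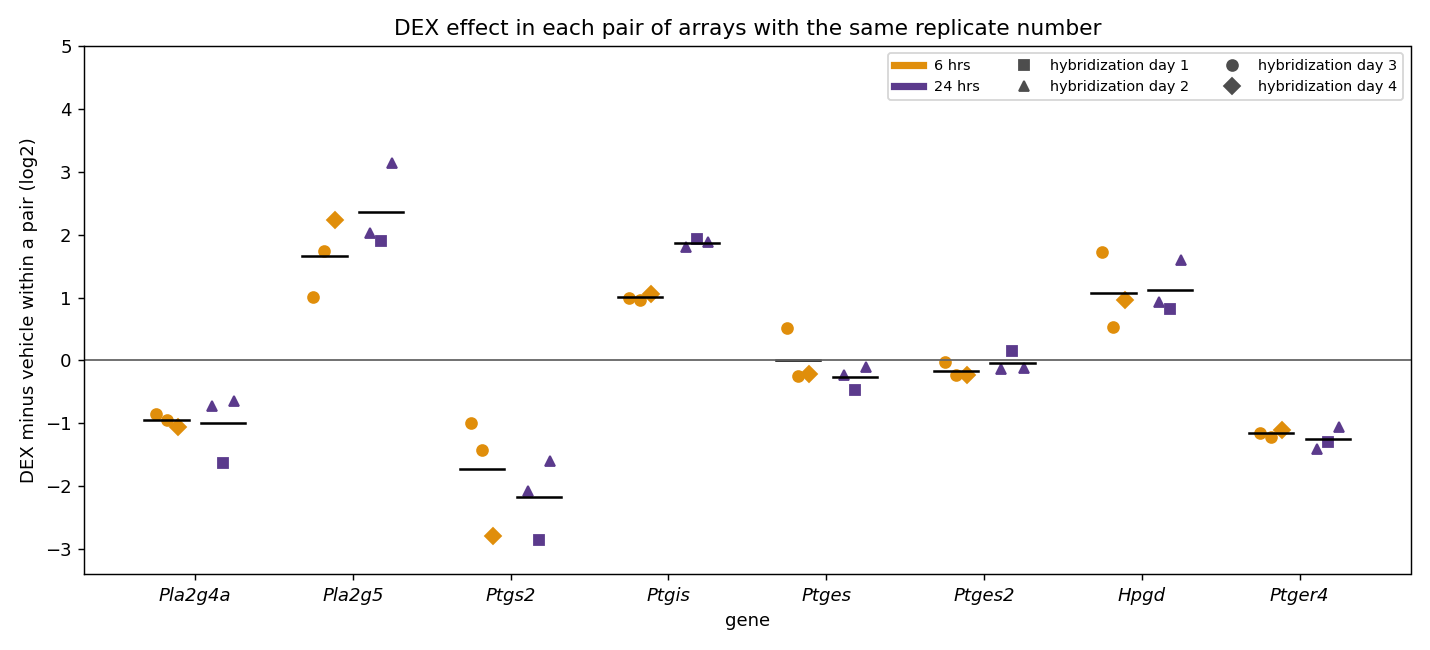
DEX minus vehicle on the log2 scale (y axis) in each pair of same-numbered arrays for the 8 tested prostaglandin genes, with 6 hrs left of 24 hrs, marker shapes for the hybridization day and black lines for the mean of 3 pairs. The 6 pairs of Ptger4 lie between -1.41 and -1.06, while those of Ptgs2 run from -2.85 to -0.99.

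**Figure D4:**
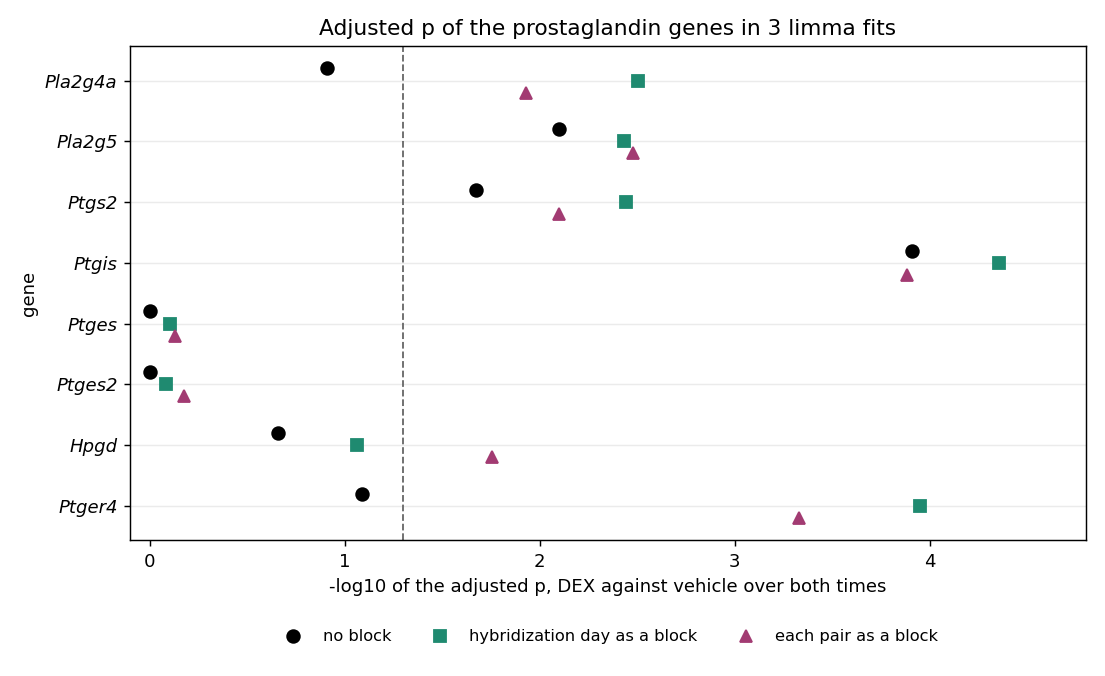
Adjusted p of DEX against vehicle over both times, as -log10 (x axis), for the 8 tested prostaglandin genes in limma fits that use no block, days as blocks or pairs as blocks; the dashed line marks 0.05. Ptgis, Pla2g5 and Ptgs2 pass in each fit, Pla2g4a and Ptger4 in both blocked fits, and Hpgd with the pairs alone.

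After adjustment no gene of the 8 passed the test of a difference in its DEX response between 6 and 24 hrs. Apart from Ptgis, the 24 minus 6 hrs difference of the effect ran from -0.45 for Ptgs2 (SE 0.66) to 0.69 for Pla2g5 (SE 0.58), and for Pla2g4a, Hpgd and Ptger4 it was -0.04, 0.05 and -0.10. Their intervals were wide, -1.25 to 1.06 for Ptger4 for example, so these data do not show equal effects at the 2 times. Over time itself, which cannot be told apart from hybridization day, Ptger4 was lower at 24 hrs in both arms (-1.06 with DEX and -0.96 with vehicle), and Hpgd was higher (0.70 with DEX and 0.65 with vehicle).

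After the mean of each day was taken off, the genes fell into opposed sets over the 12 arrays, which all share the DEX and vehicle contrast. The correlations carry that contrast and are not an observation separate from the fold changes. Ptgs2 correlated with Pla2g4a at 0.957 and with Ptger4 at 0.890, and with Ptgis at -0.938. Ptgis and Pla2g5 correlated with Ptger4 at -0.930 and -0.929. Ptges2 correlated with the other members at -0.33 to 0.51. The genes most like Ptgs2 by this measure were Ank, a pyrophosphate transporter of cartilage (0.98), the forkhead factor Foxq1 (0.97) and the EGF receptor ligand Hbegf (0.97). Those most like Ptgis were the small heat shock protein Cryab (0.99), the electron carrier Fdx1 (0.99) and the matrix proteoglycan Omd (0.98), and those most like Pla2g5 were the fatty acid binding protein Fabp4 (0.99), Crispld2 (0.98) and Arhgdib (0.98).

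Among the other genes of the pathway few passed the test. Of 13 further genes for phospholipases A2 and arachidonic acid handling that were tested, none passed without a block, and their median log2 fold change over both times was -0.15, against -0.02 for all probe sets tested. Plaa, a phospholipase activator, Acsl4, which ligates arachidonic acid to coenzyme A, and the acyltransferase Lpcat3 were the brightest, at -0.17, -0.19 and 0.09. The lysosomal enzyme Pla2g15 was 0.58 higher with DEX at 24 hrs, with an adjusted p of 0.573 (0.0312 with days and 0.0548 with pairs as blocks). None of 4 further prostanoid synthases tested passed without a block (median 0.09). Cbr3, a carbonyl reductase, was higher with DEX in 6 of 6 pairs, with 164, 179.6 and 146 with DEX against 105, 115 and 96.1 with vehicle at 6 hrs and 129, 121 and 156 with DEX against 95.9, 82.1 and 52.0 with vehicle at 24 hrs. No Cbr3 array with DEX fell within the vehicle range of its time, and the combined log2 value was 0.74 (SE 0.16, adjusted p 0.0726, or 0.0486 with pairs as blocks). Akr1b8 stood at -0.43 (adjusted p 0.419, or 0.127 with pairs as blocks). It was lower with DEX in 6 of 6 pairs, and its groups did not overlap at either time. Prxl2b, a prostamide and prostaglandin F synthase, stood at 0.23 and was higher in 6 of 6 pairs, with groups that overlapped at both times. Cbr1 stood at -0.05. Of all probe sets tested, 4.29% were higher in 6 of 6 pairs and 4.71% lower. Hpgds and Tbxas1, the hematopoietic prostaglandin D synthase and thromboxane synthase, were below 50.

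None of 6 further genes of prostaglandin breakdown and transport passed in any of the 3 fits (median 0.01). The reductases Ptgr1 and Zadh2 were at 0.01 and 0.04, and the prostaglandin transporter Slco2a1 was at -0.28 with an interval of -0.71 to 0.15. Ptger4 was the only classical prostaglandin E receptor above the minimum, since Ptger1, Ptger2 and Ptger3 were below 50 in every group, as were Ptgdr, Ptgdr2, Ptgfr and the prostacyclin receptor Ptgir. Of the receptor list, Tbxa2r, the thromboxane receptor, and Ptgfrn, a regulator of the prostaglandin F receptor, were tested and did not pass, at 0.19 and 0.13. In the neighbouring lipoxygenase and epoxide arm 4 genes were tested and none passed. Ephx2, the soluble epoxide hydrolase, was at 0.91 over both times (SE 0.26, adjusted p 0.306, or 0.128 with pairs as blocks). Its DEX arrays lay above its vehicle arrays at 6 hrs, as for 3.04% of all probe sets tested, and at 24 hrs, as for 8.45%. It was higher in 6 of 6 pairs, as were 4.29%. Its group means were 40.2 with DEX and 28.1 with vehicle at 6 hrs, and 57.9 with DEX and 26.9 with vehicle at 24 hrs, so it passed the minimum through DEX at 24 hrs alone. The others were Lta4h, which makes leukotriene B4, at -0.13, the 5-lipoxygenase activating protein Alox5ap at 0.21 and the epoxygenase Cyp2j6 at 0.07, and Alox5 and Alox15 were below 50.

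Of the 12 genes tested that are known to control Ptgs2 transcript or phospholipase activity (median 0.03), 2 passed without a block over both times. Of all probe sets tested, 0.747% did. These were the only calls of that fit among the other pathway lists. The list was chosen with earlier results of these data known, so the count tests nothing about it. Tsc22d3, a glucocorticoid-induced leucine zipper protein, read 945, 897 and 2219 with DEX against 82.3, 53.1 and 89.0 with vehicle at 6 hrs, and 1581, 1784 and 1839 with DEX against 209, 218 and 280.1 with vehicle at 24 hrs. Every DEX array was far above every vehicle array, and it rose by 3.48 on the log2 scale (SE 0.23, adjusted p 0.000100) over both times. Il6, an inflammatory cytokine, read 6.67, 11.9 and 5.96 with DEX against 55.8, 52.4 and 31.0 with vehicle at 6 hrs, and 16.2, 5.29 and 12.8 with DEX against 71.0, 28.0 and 59.6 with vehicle at 24 hrs. It passed the minimum through a vehicle group alone, and its DEX arrays, at 5.29 to 16.2, were all far under 50. It fell over both times, with a log2 value of -2.39 (SE 0.34, adjusted p 0.00784) that was -1.32 (adjusted p 0.00619) with 16 added before log2, so its size depends on this setting. Without the 4 arrays of day 3, which left 1 DEX and 1 vehicle array at 6 hrs, Il6 did not pass.

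Among the 3 fits, 4 further regulators passed over both times only in those with blocks. Of all probe sets tested, 2.87% passed with days as blocks and 3.2% with pairs. The phosphatase Dusp1 was at 0.52 over both times (adjusted p 0.122, or 0.0142 with pairs as blocks), and Zfp36, tristetraprolin, which binds AU-rich transcripts, at 0.57 (0.547, or 0.0161). Its relative Zfp36l1 was at -0.63 (0.531, or 0.0110), and the interleukin 1 receptor Il1r1 at -0.77 (0.106, or 0.00781). Dusp1 and Zfp36 were higher with DEX in 6 of 6 pairs, as were 4.29% of all probe sets tested. Zfp36l1 and Il1r1 were lower in 6 of 6, as were 4.71%. Il1rn, at -0.48, was lower in 6 of 6 too, and Cebpd higher, and neither passed in any of the 3 fits. Nfkbia, the NF-kB inhibitor, stood at 0.42 (adjusted p 0.752) and Anxa1, annexin A1, a known glucocorticoid-regulated inhibitor of phospholipases, at 0.10 with an interval of -0.20 to 0.40. The cytokine genes Il1b and Tnf were below 50. The C/EBP genes Cebpb and Cebpd, looked at because of the motif in the Ptgs2 window, stood at -0.19 and 0.29, with adjusted p of 1.00 and 0.622.

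**Figure D5:**
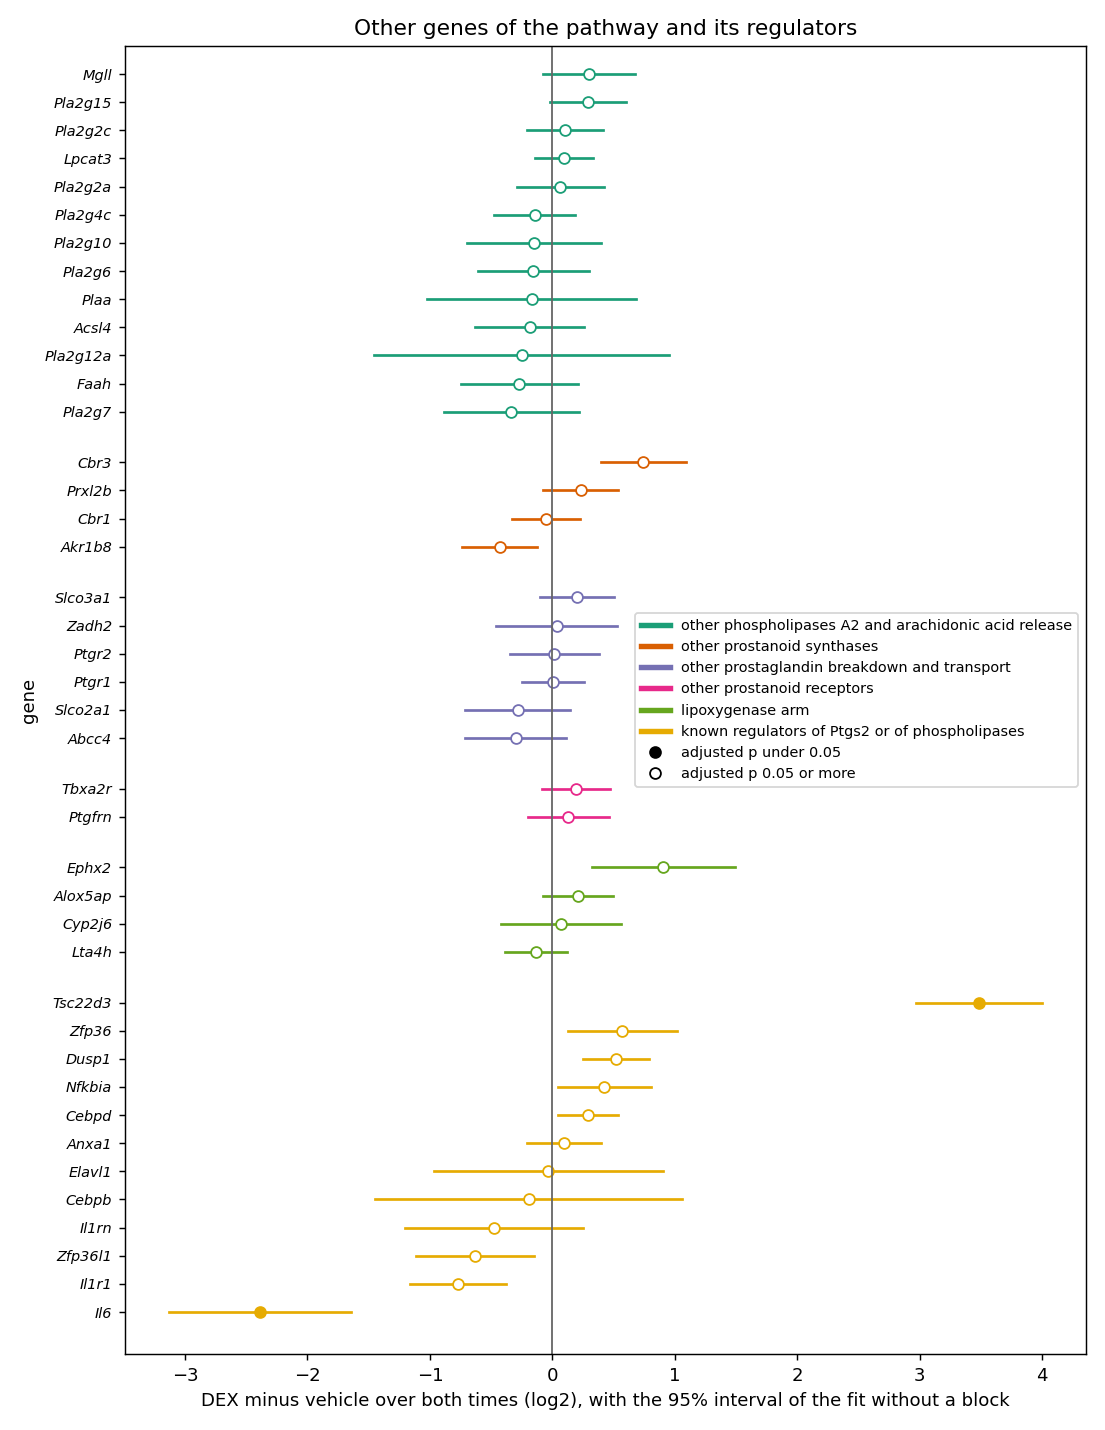
DEX minus vehicle over both times on the log2 scale (x axis), with the 95% interval of the limma fit without a block, for the 41 other pathway genes tested, coloured by list, with filled points for an adjusted p under 0.05. Tsc22d3 at 3.48 and Il6 at -2.39 are the filled points.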

How the data were processed

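Per the paper's methods, the authors used GeneSpring GX to summarise each chip by GC-RMA (the submitters' processing notes name GCRMA, with no version in the sources used here), and the deposited table holds linear intensity values for 45101 probe sets on 12 arrays. Arrays have no read depth, and precision is set by how many there are and by how far a signal lies over background. Intensities were turned to log2 here with no pseudocount, and the tests took the 20897 probe sets whose mean reached 50 in any of the 4 groups. Tests were run with limma 3.58.1 under R 4.3.3, fitting the 4 group means to all 12 arrays with no block and moderating variances with eBayes, with SE the moderated standard error and Benjamini-Hochberg adjustment over all probe sets tested at 0.05. The script was tested on simulated data. Tables and figures were made with Python 3.11.15, pandas 2.3.3 and matplotlib 3.10.9.

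Gene names came from the platform annotation, which gives 34958 probe sets 1 symbol, 932 several and 9211 none listed. A gene is represented by its brightest tested probe set. The members, gene lists and tests were chosen with earlier results of these data known. All members are named, and of each list the genes past the threshold in any of 3 fits and the 3 brightest. Cebpb, Cebpd, Ephx2, Il1rn and genes named only as below the minimum were chosen after their values were seen.

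The run files gave 4 hybridization days, each with both arms: for 24 hrs, replicate 2 fell on day 1 and the others on day 2, and for 6 hrs, replicate 4 fell on day 4 and the others on day 3. After subtraction of group means, same-numbered arrays of the 2 arms correlated at 0.681, 0.632 and 0.863 (replicates 1, 2 and 4) at 6 hrs and at 0.158, 0.301 and 0.220 at 24 hrs, so the numbers were taken to pair arrays within a time. Unlike numbers on a shared day correlated at 0.506 and 0.571 at 6 hrs and at 0.0181 and 0.00825 at 24 hrs. Alternatives were no minimum, 16 added before log2, quantile normalization, either block, a trended robust prior, only the arrays compared and leaving out each array. Welch's test of the 2 arms at each time was a further one (the methods name a Welch ANOVA over both times). Leaving out day 3 was chosen after seeing the data, and it left 1 DEX and 1 vehicle array at 6 hrs. The spread of a probe set in that fit therefore comes from its 24 hrs arrays alone.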

Additional observations from a re-analysis of the deposited data

How the results depend on the processing

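Precision is limited by 3 arrays a group, by signal near background for Pla2g5, Il6 and Ptgds, and by hybridization days that cannot be told apart from time. The count of prostaglandin genes past the threshold was 1 for 6 hrs, 2 for 24 hrs and 3 for both times combined. Without the minimum intensity it was 0, 1 and 2, with days as blocks 3, 5 and 5, and with the replicate block, in which each pair is a block, 2, 4 and 6. With only the arrays compared it was 0 at 6 hrs and 3 at 24 hrs, with Welch's test at each time 0 at both times after Benjamini-Hochberg, and with a trended robust prior 1 at 24 hrs. The methods name a p-value cut-off together with a false discovery rate. At that cut-off alone, without the adjustment, Welch's test took 127 of 20897 probe sets at 6 hrs, Ptgis and Pla2g5 among them. At 24 hrs it took 380, with Ptgis. The methods name a Welch ANOVA over both times on a list filtered otherwise, so these 2-group tests are not that step. Fits that left out 1 array gave 0 to 2 genes at 6 hrs, 1 to 3 at 24 hrs and 2 to 4 over both times. Over all probe sets tested the counts were 47, 60 and 156. They were 18, 22 and 73 without the minimum intensity, 198, 455 and 600 with day as a block, and 189, 449 and 668 with the replicate block. With only the arrays compared they were 0 at 6 hrs and 163 at 24 hrs, and with Welch's test 0 at both. Leaving out the 4 arrays of day 3 is not a separate check at 24 hrs. The 1 array left in each 6 hrs group adds no spread, so that fit repeats the one with only the arrays compared. Leaving out 1 array gave 18 to 38, 16 to 88 and 90 to 156. For the difference between the times the count was 0, and 1 without the minimum intensity and 1 with the replicate block. The cause of these shifts was not tested, except that without the minimum more probe sets enter the adjustment and fewer arrays enter the fits that leave some out.

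In 52 values of single genes, the direction changed only in genes near 0. When 1 array was left out, Ptges ran from -0.28 to 0.29 at 6 hrs and from -0.27 to 0.013 over both times, and Ptges2 from -0.13 to 0.095 at 24 hrs. Over both times Plaa ran from -0.47 to 0.14, Cbr1 from -0.11 to 0.022, Ptgr1 from -0.031 to 0.077, Zadh2 from -0.15 to 0.17 and Cyp2j6 from -0.13 to 0.20. Without day 3 Ptgr1 was -0.058. The other directions held under each alternative run.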
